A study of Homo sapiens with 14 samples.

Results

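The loci of 7 endoderm regulators, GATA4, GATA6, SOX17, FOXA1, FOXA2, HNF4A and PDGFRA, were examined for BAF and SOX2 occupancy in naïve and primed human embryonic stem cells (hESCs). Each locus was the gene body in GENCODE release 44 (hg38) with 60 kb added on each side, and the 7 loci were set beside the same windows of 20033 protein-coding genes. The series holds 14 chromatin immunoprecipitation sequencing (ChIP-seq) samples of WIBR3, an established hESC line. Primed cells were kept under conventional conditions with serum and FGF2, naïve cells were reset from them and kept in 5i/L/A (a cocktail of kinase inhibitors with LIF and Activin A), and both grew on mouse feeder cells. In each state there was 1 library each for BRG1 (the ATPase SMARCA4), BAF155 (the scaffold subunit SMARCC1) and BRM (the alternative ATPase SMARCA2), 2 libraries for SOX2, and 2 input libraries that were used only as the authors' peak-calling controls. The 2 SOX2 lists of a state held identical coordinates and were counted as 1 sample, so no comparison between the states had replicates and no test was made. The files hold peak positions and no expression values, so the cell states were not checked against marker genes.

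GATA6, GATA4, SOX17 and PDGFRA are known from the primitive endoderm (hypoblast), the lineage that separates from the epiblast in the blastocyst: GATA6 and GATA4 are zinc-finger factors, SOX17 is a high-mobility-group factor, and PDGFRA is a receptor tyrosine kinase that marks the lineage at its surface. FOXA1 and FOXA2 are forkhead pioneer factors and HNF4A is a nuclear receptor, and all of them take part in the specification of definitive endoderm and liver, in which GATA4, GATA6 and SOX17 act again. Neither naïve nor primed hESCs are endoderm. BAF complexes are chromatin remodelers that use the energy of ATP to slide or eject nucleosomes, and they carry either BRG1 or BRM as their motor subunit, while SOX2 is a pluripotency factor that binds DNA through a short core motif. In all sentences below, a peak is an interval called by the authors against input, its fold is the enrichment over input that they deposited, and its q is the adjusted significance of that enrichment, given as −log10 q.

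The strongest primed SOX2 peaks of FOXA2, FOXA1 and GATA6, the 3 naïve SOX2 peaks and the BRM peak on the strongest naïve BAF155 peak of HNF4A are shown as hg38 sequence, as examples of sites with SOX2 or BRM peaks in 1 state and not in the other, which holds for every SOX2 and BRM peak at the 7 loci. The FOXA2 fragment (chr20:22579213-22579512) is the central 300 bases of the strongest SOX2 peak of any member. The FOXA1 fragment spans chr14:37584088-37584331, between genes. The 4 GATA6 fragments span chr18:22178346-22178634 and chr18:22183874-22184083, both in introns of GATA6, and chr18:22215936-22216220 and chr18:22218424-22218687, both in introns of a noncoding gene downstream of it (ENSG00000264825). The HNF4A fragment spans chr20:44396602-44396822 in an intron. All are written on the plus strand, and none overlaps an annotated exon. The naïve SOX2 fragments were added after their values had been seen. Capitals mark matches, on either strand, to the SOX core words (CATTGT and its variant CTTTGT), the octamer (ATGCAAAT), the GATA words (AGATAA and its variant TGATAA), the FOX words (TGTTTAC and its variant TGTTTGC), the KLF words (GGGTGTGGC and its variant GGGCGGGGC), the TFAP2 word (GCCNNNGGC) and the ZIC word (CCTGCTG), and matches to different words may share bases.
FOXA2 primed SOX2, +5.2 kb: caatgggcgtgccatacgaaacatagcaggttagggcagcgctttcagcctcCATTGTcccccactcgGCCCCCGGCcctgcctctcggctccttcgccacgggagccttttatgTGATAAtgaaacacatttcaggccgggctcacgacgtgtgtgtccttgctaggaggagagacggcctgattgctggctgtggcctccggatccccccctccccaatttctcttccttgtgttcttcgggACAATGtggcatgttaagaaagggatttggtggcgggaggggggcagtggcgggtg
FOXA1 primed SOX2, +11.0 kb: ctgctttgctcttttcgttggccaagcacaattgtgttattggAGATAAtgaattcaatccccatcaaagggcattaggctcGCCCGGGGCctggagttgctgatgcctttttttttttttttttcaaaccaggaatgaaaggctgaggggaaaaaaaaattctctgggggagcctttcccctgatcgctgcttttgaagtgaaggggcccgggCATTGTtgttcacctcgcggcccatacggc
GATA6 primed SOX2, +49.0 kb: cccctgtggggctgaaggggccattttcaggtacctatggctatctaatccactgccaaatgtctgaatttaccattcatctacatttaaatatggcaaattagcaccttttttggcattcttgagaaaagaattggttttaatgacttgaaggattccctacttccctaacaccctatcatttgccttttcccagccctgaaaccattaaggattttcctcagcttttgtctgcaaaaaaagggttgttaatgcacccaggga
GATA6 naïve SOX2, +46.5 kb: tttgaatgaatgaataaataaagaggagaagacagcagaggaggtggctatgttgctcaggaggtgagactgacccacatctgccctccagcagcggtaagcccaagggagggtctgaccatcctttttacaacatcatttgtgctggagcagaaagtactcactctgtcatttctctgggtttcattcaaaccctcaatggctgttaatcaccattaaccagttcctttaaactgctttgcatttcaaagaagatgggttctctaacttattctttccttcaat
GATA6 naïve SOX2, +14.4 kb: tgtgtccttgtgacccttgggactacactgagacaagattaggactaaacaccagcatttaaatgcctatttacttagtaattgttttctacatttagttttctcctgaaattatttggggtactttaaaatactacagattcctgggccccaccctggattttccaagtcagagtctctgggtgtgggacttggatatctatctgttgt
GATA6 naïve SOX2, +8.9 kb: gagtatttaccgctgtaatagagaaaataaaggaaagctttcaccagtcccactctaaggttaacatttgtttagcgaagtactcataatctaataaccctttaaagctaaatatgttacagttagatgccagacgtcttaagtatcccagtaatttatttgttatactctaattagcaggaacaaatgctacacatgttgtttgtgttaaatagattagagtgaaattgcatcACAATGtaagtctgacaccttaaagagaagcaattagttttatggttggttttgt
HNF4A naïve BRM, +41.0 kb: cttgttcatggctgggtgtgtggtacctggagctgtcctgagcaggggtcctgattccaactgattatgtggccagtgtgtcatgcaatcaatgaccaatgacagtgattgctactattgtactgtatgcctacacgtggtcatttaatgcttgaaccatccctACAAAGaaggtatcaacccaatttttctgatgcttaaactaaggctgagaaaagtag

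Positions in kb are counted from the 5′ end of the gene's canonical transcript, positive in the direction of transcription. The FOXA2 fragment held CATTGT on the printed strand at bases 53 to 58 and on the other strand at bases 245 to 250, with TGATAA at bases 116 to 121 and a TFAP2 word at bases 69 to 77. The FOXA1 fragment held CATTGT at bases 215 to 220, AGATAA at bases 44 to 49 and a TFAP2 word at bases 83 to 91. Of the 3 naïve SOX2 fragments of GATA6, the one at +8.9 kb held a SOX core match, at bases 235 to 240 on the other strand, and the fragments at +14.4 and +46.5 kb held none of the words. The primed SOX2 fragment of GATA6 at +49.0 kb held none either. In 300-base windows centred on the peaks, a SOX core word was present in 6 of the 10 primed SOX2 peaks at the loci, against 67.7% of all 9290 primed SOX2 peaks, and in 1 of the 3 naïve SOX2 peaks, against 64.9% of all 1940. A ZIC word was present in 4 of the 10 primed SOX2 peaks at the loci and in 17.3% of the whole list, and an octamer in 1 of the 10 and in 10.5%. These matches describe the letters in each window and not binding.

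BRG1 peaks were more numerous in naïve cells and BAF155 peaks in primed cells. Over the 7 loci there were 55 naïve and 13 primed BRG1 peaks, and 47 naïve and 64 primed BAF155 peaks. Naïve BRM had 16 peaks and primed BRM had 0. SOX2 had 3 peaks in naïve cells, all at GATA6, and 10 in primed cells, at 5 loci. These counts stand on lists of unequal length, since the naïve BRG1 list holds 57884 peaks and the primed one 15611, the BAF155 lists hold 62338 and 58352, the naïve BRM list 17413, the primed BRM list 167, and the SOX2 lists 1940 and 9290. A median of 7.0 naïve BRG1 peaks per member compares with 6.0 per protein-coding window, and a median of 2.0 primed BRG1 peaks with 1.0. The medians for BAF155 were 8.0 against 6.0 in naïve cells and 9.0 against 5.0 in primed cells. The files used here list peaks without read counts. The study reports more reads in the primed than in the naïve library for both BRG1 and BAF155. The relation of read depth to these counts was not tested.

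**Figure D1:**
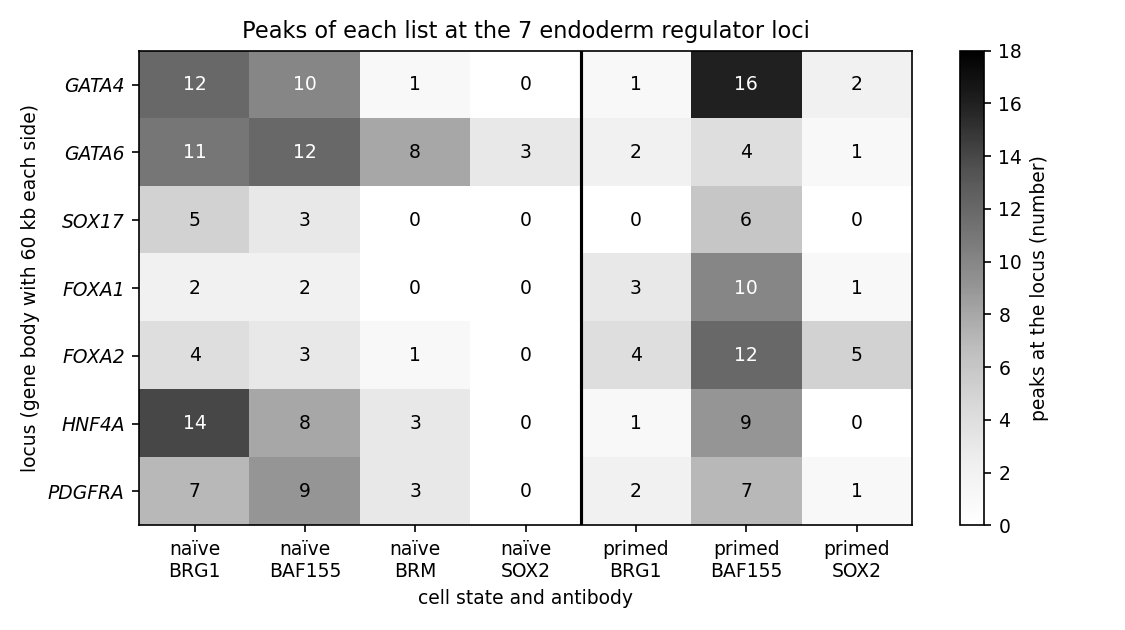
Number of peaks at each locus (rows) in each list (columns, by cell state and antibody), with darker cells for more peaks. GATA6 holds 8 of the 16 naïve BRM peaks and all 3 naïve SOX2 peaks, while primed BAF155 reaches 16 at GATA4 and 12 at FOXA2.

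BRG1 and BAF155 peaks of a state were merged into BAF regions, and a region was called common where it overlapped a region of the other state by at least 25% of either, and naïve-only or primed-only otherwise. The 7 loci held 93 BAF regions. Of these, 29 (31.2%, 95% Clopper-Pearson interval 22.0 to 41.6) were naïve-only, against 45.4% of all 106424 BAF regions in the genome. Another 32 (34.4%, 24.9 to 45.0) were primed-only, against 28.5% in the genome, and a further 32 were common, against 26.1%. Among state-specific regions, 29 of 61 were naïve-only (47.5%, 34.6 to 60.7), against 61.4% in the genome. All intervals cover counting error only. The genome shares count every BAF region, also those outside gene windows, and shares within gene windows alone were not computed. The study reports fewer merged BAF peaks, so its shares differ from these. Per 100 kb, the median over the members was 1.63 naïve-only, 3.25 primed-only and 2.62 common regions. Over all protein-coding windows it was 2.42, 0.908 and 1.70. The distance from the genome depended on which peaks were admitted: with peaks of −log10 q of at least 3, the naïve-only share was 45.5% at the loci and 44.2% in the genome, and with a fold of at least 4 it was 30.8% and 22.2%. With equal numbers of top-fold peaks in both states it was 35.0% and 51.0%. The common share fell below that of the genome with −log10 q of at least 3 (19.5% and 20.3%) and with a fold of at least 4 (0% and 10.6%). It was also below with 50% of both regions required (10.3% and 13.4%) and with BRG1 lists alone (9.68% and 15.9%). In the other settings it stayed above.

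The members did not share one pattern. More naïve-only than primed-only regions lay at 3 of the 7 members (GATA6, HNF4A and PDGFRA), as at 66.1% of protein-coding windows, and more primed-only regions lay at 4 (GATA4, SOX17, FOXA1 and FOXA2), as at 21.2%. FOXA1 and FOXA2 had primed-only regions and no naïve-only one, as at 6.43% of windows, and GATA6 had naïve-only regions and no primed-only one, as at 17.5%. Where an overlap of 50% of both regions was required, these loci had regions of both classes, with 2 naïve-only and 10 primed-only at FOXA1, 4 and 12 at FOXA2, and 10 and 1 at GATA6. With equal numbers of top-fold peaks in both states, 1 member (GATA6) kept more naïve-only regions, and with BRG1 lists alone there were 5, among them GATA4 and SOX17.

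**Figure D2:**
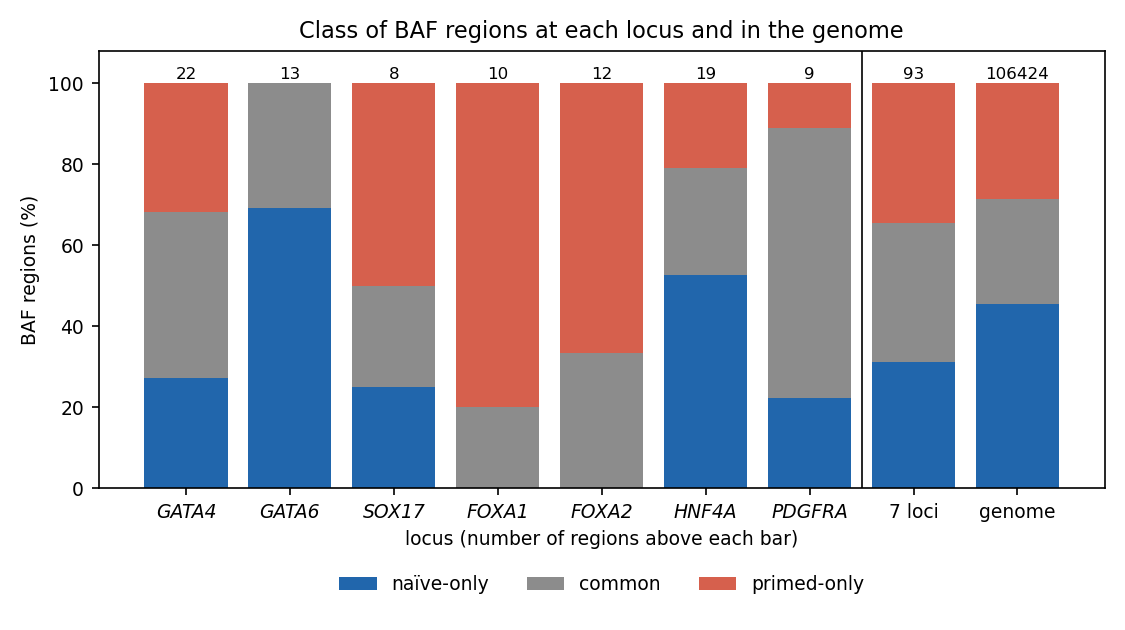
Share of naïve-only (blue), common (grey) and primed-only (red) BAF regions, in percent, at each locus, over the 7 loci and in the genome, with the number of regions above each bar. FOXA1 and FOXA2 have no blue segment and GATA6 has no red one.

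**Figure D3:**
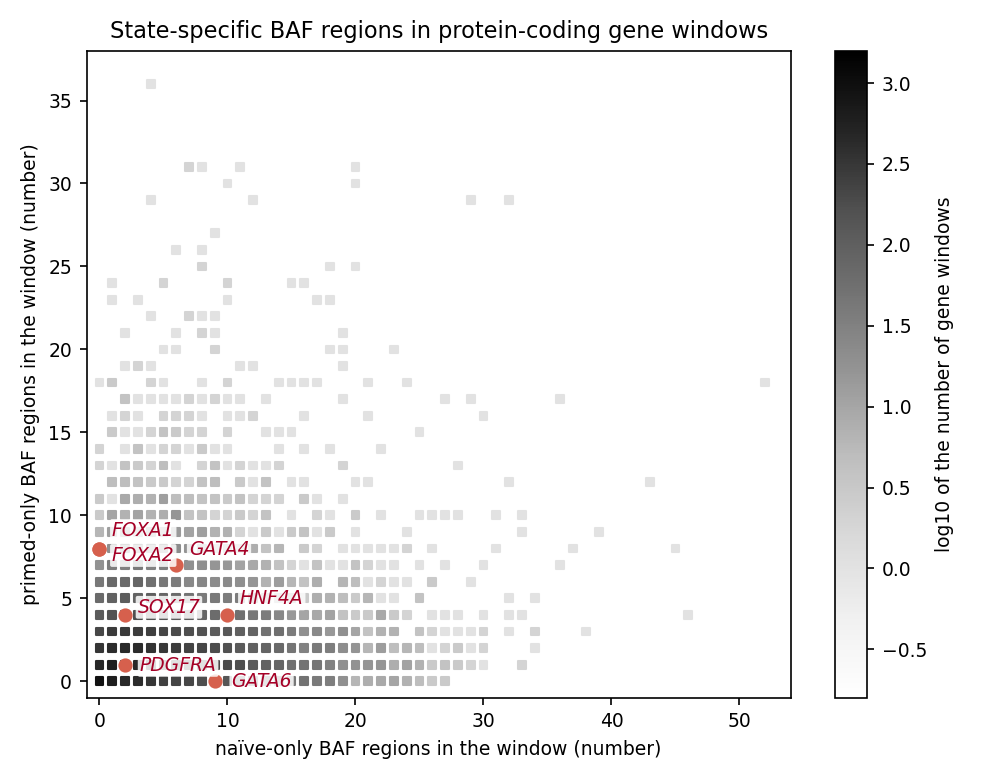
Number of naïve-only (x axis) and primed-only (y axis) BAF regions in the windows of 20033 protein-coding genes, grey by the log10 of the number of windows at each pair of counts, with the 7 members as red points. FOXA1 and FOXA2 share a point at 0 and 8, and GATA6 lies at 9 and 0.

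FOXA2 (ENSG00000125798.15, chr20:22580998-22585455, minus strand) was the member with most primed SOX2 peaks. It had 4 naïve BRG1, 3 naïve BAF155, 4 primed BRG1 and 12 primed BAF155 peaks, and its 12 BAF regions were 8 primed-only and 4 common. Its density of 6.43 primed-only regions per 100 kb was higher than at 99.8% of protein-coding windows. With BRG1 lists alone FOXA2 had no such excess, at 3 naïve-only and 3 primed-only regions, and with a fold of at least 4 it had 0 and 2. At least 8 primed-only and 0 naïve-only regions, the counts of FOXA1 and FOXA2, were found in 0.150% of windows, a threshold set after their counts were known. The common region over the FOXA2 5′ end (chr20:22582116-22585457) carried peaks of all 4 BAF lists and a naïve BRM peak of fold 3.44.

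The 5 primed SOX2 peaks of FOXA2 lay on both sides of the gene. The strongest, at +5.2 kb (chr20:22579018-22579707), had a fold of 11.5 and a −log10 q of 39.2, above 86.6% of the primed SOX2 list. It lay within 1 kb of the start of LINC00261, a long noncoding RNA known to accompany FOXA2 in endoderm, and in a common BAF region that held BRG1 and BAF155 in both states. The naïve BRG1 and BAF155 peaks of this region ended before the SOX2 peak began. The other SOX2 peaks, at +9.0, +17.1, -27.2 and -35.8 kb, had folds of 4.75, 3.43, 3.80 and 6.05, all below the list's median. The peak at -27.2 kb lay in a common region and the other 3 in primed-only ones. All 5 were thus in BAF regions of primed cells, as were 88.4% of all primed SOX2 peaks. No naïve SOX2 peak lay in the window. A count of at least 5 primed SOX2 peaks was found in 1.16% of protein-coding windows.

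FOXA1 (ENSG00000129514.8, chr14:37589552-37596059, minus strand) resembled FOXA2 in its classes, with 8 primed-only and 2 common BAF regions. Its window held 2 naïve BRG1, 2 naïve BAF155, 3 primed BRG1 and 10 primed BAF155 peaks, and no BRM peak. The density of 6.32 primed-only regions per 100 kb was again above that of 99.8% of windows. The counts fell to 1 naïve-only and 2 primed-only regions with BRG1 lists alone, to 0 and 2 when peaks had to reach a −log10 q of 3, and to 0 and 1 with a fold of at least 4. One common region covered the 5′ end (chr14:37594218-37596309), where the naïve BRG1 peak had a fold of 3.83 and the naïve BAF155 peak 3.23. The other common region, at +11.3 kb (chr14:37582885-37584951), held all 4 BAF lists and the single primed SOX2 peak of the locus (+11.0 kb, fold 4.57). TTC6, a gene that starts next to the FOXA1 5′ end, was the nearest protein-coding start for 4 of the 8 primed-only regions, which leaves 4 nearest FOXA1.

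GATA6 (ENSG00000141448.11, chr18:22169589-22202528, plus strand) showed the opposite classes, with 9 naïve-only, 4 common and 0 primed-only BAF regions. It had 11 BRG1 and 12 BAF155 peaks in naïve cells, and 2 and 4 in primed cells. GATA6 was the nearest protein-coding start of every one of the 13 regions. Its naïve-only density of 5.88 per 100 kb exceeded that of 81.0% of windows, so it was high and not rare, and 4.32% of windows had at least 9 naïve-only and 0 primed-only regions. With a fold of at least 4 it had 1 of each class. The region over the 5′ end was common and wide (chr18:22165197-22171867, 6671 bp), also spanning the start of GATA6-AS1, and it carried all 4 BAF lists with naïve BRM. Primed BAF155 covered 10.9 kb of the locus with its 4 peaks, close to the 11.6 kb that naïve BAF155 covered with 12.

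GATA6 was also the only member with naïve SOX2 peaks. At least 1 such peak was found in 13.2% of protein-coding windows and at least 3 in 0.339%. At +8.9 kb (chr18:22178346-22178634) the naïve SOX2 peak had a fold of 6.34 and lay in a common BAF region. At +14.4 kb (chr18:22183874-22184083, fold 5.22) and +46.5 kb (chr18:22215936-22216220, fold 6.15) it lay in naïve-only regions that also held naïve BRG1, BAF155 and BRM. The 3 folds ranked at or below 34.1% of the naïve SOX2 list. A primed SOX2 peak at +49.0 kb (chr18:22218424-22218687, fold 5.96) began 2203 bases beyond the last naïve one. It was the single one of the 10 primed SOX2 peaks outside a BAF region of primed cells, while 88.4% of the whole list lay inside one. In a naïve BRM peak lay 168 bases of this primed SOX2 peak (63.6%). None of the 3 naïve SOX2 peaks at the 7 loci overlapped a primed one, whereas 931 of the 1940 naïve SOX2 peaks in the genome overlapped a primed one.

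**Figure D4:**
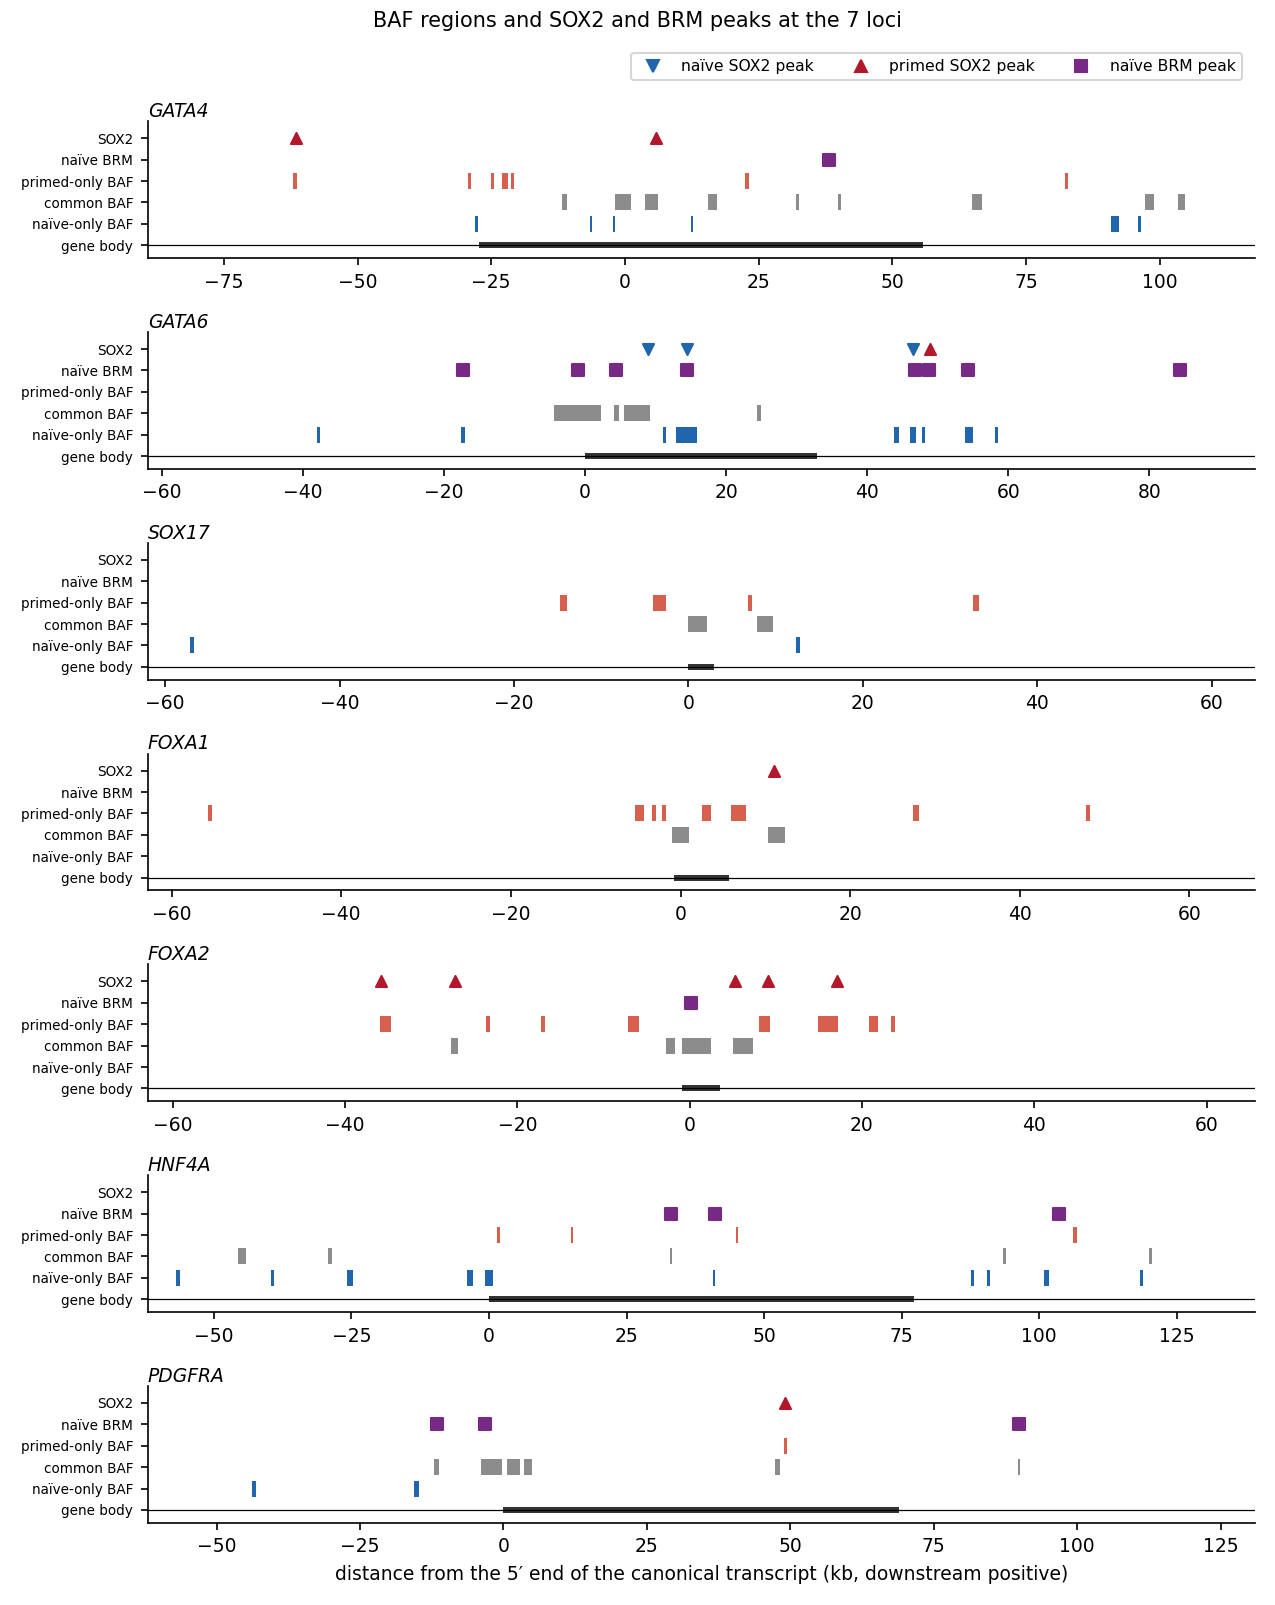
Gene body (black bar), naïve-only, common and primed-only BAF regions (blue, grey and red bars), naïve BRM peaks (squares) and SOX2 peaks (downward triangles for naïve, upward for primed) at each locus, by distance in kb from the 5′ end of the canonical transcript; each panel has its own scale and the narrowest regions were widened to stay visible. The 3 naïve and the 1 primed SOX2 peaks of GATA6 and the 5 primed SOX2 peaks of FOXA2 can be read against the BAF regions beneath them.

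HNF4A (ENSG00000101076.20, chr20:44355699-44432845, plus strand) had the most naïve-only regions, 10, with 4 primed-only and 5 common. It held 14 BRG1 and 8 BAF155 peaks in naïve cells and 1 and 9 in primed cells. The gene is known to be transcribed from a distal promoter, P2, and from P1 within the longer gene body. At the 5′ end used here the BAF region was naïve-only (chr20:44355011-44356509), with a BAF155 peak of fold 3.21 (−log10 q 5.42) and a BRG1 peak of fold 2.86. The region at +45.1 kb (chr20:44400630-44400938), within 1 kb of an internal start, was primed-only, with a BAF155 peak of fold 3.01 and a −log10 q of 1.70. In these lists the 2 starts of 1 gene thus had BAF regions of opposite class. Between them, at +40.9 kb (chr20:44396404-44396799), a naïve-only region carried a BAF155 peak of fold 5.34, higher than 99.1% of the naïve BAF155 list, together with BRG1 and a BRM peak of fold 4.23.

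The balance at HNF4A rested on its neighbours and on the lists. R3HDML, FITM2 and TTPAL were the nearest protein-coding starts for 7 of the 10 naïve-only regions, and with regions nearest HNF4A alone the counts were 3 naïve-only and 3 primed-only. BAF155 lists alone gave 6 naïve-only and 7 primed-only, equal numbers of top-fold peaks gave the same 6 and 7, and a fold of at least 4 gave 2 and 4. The strongest BAF peak of any member was a primed BAF155 peak in this window at -28.9 kb (chr20:44326493-44327194, fold 6.90, −log10 q 14.1), in a common region whose nearest protein-coding start was that of R3HDML. No SOX2 peak of either state lay in the HNF4A window.

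GATA4 (ENSG00000136574.19, chr8:11676959-11760002, plus strand) had the most BAF regions, 22, of which 9 were common, 7 primed-only and 6 naïve-only. Its 12 BRG1 and 10 BAF155 peaks in naïve cells compared with 1 and 16 in primed cells. The canonical 5′ end was covered by a common region (chr8:11702291-11705342). A common region at -11.3 kb (chr8:11692460-11693317) lay at an upstream start, and its naïve BAF155 peak reached a fold of 4.34, above 97.1% of its list. A naïve-only region at -27.8 kb, within 1 kb of another start, held a BRG1 peak of fold 3.24. The 2 primed SOX2 peaks of GATA4 lay at -61.6 kb (chr8:11642484-11642775, fold 8.96, in a primed-only region) and at +5.8 kb (chr8:11709778-11710202, fold 5.02, in a common region). The naïve BRG1 peak of that common region ended before the SOX2 peak began. The 1 BRM peak of GATA4, at +38.2 kb with a fold of 3.22, lay in no BAF region. The small excess of primed-only over naïve-only regions turned to 10 naïve-only against 7 primed-only with 100 kb on each side, and to 12 against 1 with BRG1 lists alone.

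SOX17 (ENSG00000164736.6, chr8:54457935-54460892, plus strand) had the fewest BAF regions, 8, of which 4 were primed-only, 2 naïve-only and 2 common. There were 5 BRG1 and 3 BAF155 peaks in naïve cells and 0 and 6 in primed cells. It had neither BRM nor SOX2 peaks in either state. The common region over its 5′ end (chr8:54457950-54460055) held a naïve BRG1 peak of fold 2.63 and a primed BAF155 peak of fold 3.17, both below the median of their lists. With BRG1 lists alone the locus had 5 naïve-only and 0 primed-only regions.

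PDGFRA (ENSG00000134853.12, chr4:54229280-54298245, plus strand) was mostly common in the main setting, with 6 common, 2 naïve-only and 1 primed-only BAF regions. Where 50% of both regions was required, it had 8 naïve-only and 5 primed-only regions, and with BRG1 lists alone 5 and 0. Of the 11 alternatives, 8 kept more naïve-only regions and 3 gave equal counts. Naïve cells had 7 BRG1 and 9 BAF155 peaks there, and primed cells 2 and 7. A common region just inside the 5′ end (chr4:54229900-54232143) held all 4 BAF lists, with folds from 2.92 for naïve BRG1 to 3.65 for primed BAF155. Another common region lay just upstream of it (chr4:54225433-54229110) and held naïve BRM with a fold of 4.01. The single primed SOX2 peak, at +49.1 kb (chr4:54278290-54278534, fold 7.64, −log10 q 11.1), lay in the only primed-only region of the window, with its midpoint in an annotated exon. The strongest BRM peak of any member was at +89.8 kb (chr4:54319053-54319202, fold 4.46), in a common region.

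At transcription starts the members mostly looked alike. A naïve BRG1 peak lay within 1 kb of a start of all 7 members (66.9% of protein-coding genes), and a naïve BAF155 peak at 6, all but SOX17 (67.1%). A primed BAF155 peak was at all 7 (72.8%) and a primed BRG1 peak at GATA6 and PDGFRA (33.8%). A naïve BRM peak was at GATA6 and FOXA2 (22.6%), and no SOX2 peak of either state lay within 1 kb of a member's start. Of the regions touching this 1 kb, 10 were common, 2 naïve-only and 2 primed-only. The state-specific regions were therefore mostly elsewhere: 13 of the 29 naïve-only and 15 of the 32 primed-only regions were intronic, while 15 of the 32 common regions were at a promoter of some gene. No genome shares of these region placements were computed, so whether they are particular to the loci was not tested. Naïve-only regions lay farther from the member's nearest start (median 39.3 kb) than primed-only (11.5 kb) and common ones (9.55 kb). These medians pool loci with windows of unequal length. GATA6 (152.9 kb) and HNF4A (197.1 kb) held 9 and 10 of the naïve-only regions, and FOXA1 (126.5 kb) and FOXA2 (124.5 kb) held 8 primed-only regions each. No genome distances were computed.

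The regions of the loci were wide for their class. Median widths were 521 bp for naïve-only, 640 bp for primed-only and 1408 bp for common regions, against 422, 374 and 1113 bp in the genome. All 32 primed-only regions held BAF155 (99.7% in the genome), and 3 (9.38%) held BRG1 (11.9%). Of the 29 naïve-only regions, 25 held BRG1 (86.2%, interval 68.3 to 96.1), against 65.7% in the genome, and 19 held BAF155 (65.5%, 45.7 to 82.1), against 74.8%. In primed cells all 13 BRG1 peaks overlapped a BAF155 peak (98.7% of the whole list), while 12 of the 64 BAF155 peaks (18.8%) overlapped a BRG1 peak, against 24.9% in the whole list. In naïve cells 37 of the 55 BRG1 peaks (67.3%) overlapped a BAF155 peak, against 71.7%.

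Naïve BRM had a peak at 5 of the 7 loci (70.2% of protein-coding windows), 8 of the 16 at GATA6, 3 each at HNF4A and PDGFRA, and 1 each at GATA4 and FOXA2. At least 8 BRM peaks were found in 5.35% of windows. Of the 16, 5 lay in naïve-only regions and 7 in common ones, none lay in a primed-only region, and 4 lay in no BAF region of naïve cells. The 12 of 16 inside a BAF region (75.0%, interval 47.6 to 92.7) compare with 94.3% of the whole BRM list. By fold the BRM peaks were typical of their list, with a median of 3.33 against 3.27 and 8 of the 16 above the list's median. Their median −log10 q was 1.71, against 1.97, and 2 of the 16 (12.5%) reached 3, against 22.2% of the list.

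Primed SOX2 had a peak at 5 of the 7 loci, as at 42.6% of protein-coding windows, and HNF4A and SOX17 had none. Of its 10 peaks, 5 lay in primed-only and 4 in common BAF regions. Their median fold of 5.49 was below the 6.73 of the whole list, and 3 of the 10 were above the list's median. With equal numbers of top-fold SOX2 peaks in both states, 1 of the 10 remained. The 3 naïve ones could not be lost in this setting, because the naïve list is the shorter and was kept whole.

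**Figure D5:**
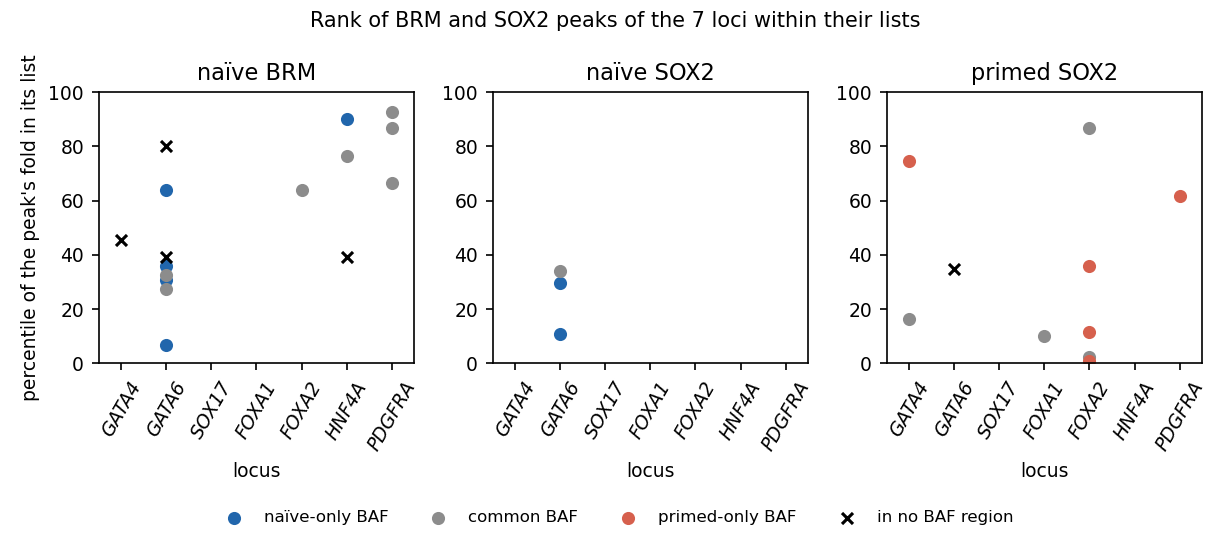
Percentile of the fold of each naïve BRM, naïve SOX2 and primed SOX2 peak within its own list (y axis) at each locus (x axis), coloured by the class of the BAF region that holds it, with a cross for peaks in no BAF region. All 3 naïve SOX2 peaks sit below 50, and the primed SOX2 peaks run from 0.834 to 86.6, both at FOXA2.

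Another 24 endoderm genes gave a second view of the lineage. The windows of COL4A1 and COL4A2 overlap, so regions and peaks in the overlap count for both genes. More naïve-only regions lay at 11 of the 24 (66.1% of protein-coding windows), more primed-only regions at 11 (21.2%), and 2 had equal numbers. The largest differences toward naïve cells were at FOXA3 (14 naïve-only and 2 primed-only regions), GATA5 (10 and 2) and TTR (7 and 1), which encode a forkhead factor, a GATA factor and the thyroid hormone carrier transthyretin. Toward primed cells they were at LHX1 (0 and 5), OTX2 (2 and 7) and COL4A1 (3 and 8), which encode a LIM homeodomain factor, a homeodomain factor and a basement membrane collagen. In the same families, FOXA3 thus had classes opposite to FOXA1 and FOXA2. GATA5 had more naïve-only regions as GATA6 did, while GATA4 had 6 naïve-only and 7 primed-only. SOX7 had 1 naïve-only and 1 primed-only region, and SOX17 had 2 and 4. The medians over the 24 genes were 3.00 naïve-only, 2.50 primed-only and 2.50 common regions, against 2.00, 4.00 and 4.00 over the 7 members and 4.00, 2.00 and 3.00 over all windows. Naïve BRM had a peak at 16 of the 24 (70.2% of protein-coding windows), naïve SOX2 at 3 (13.2%) and primed SOX2 at 14 (42.6%). EOMES, GSC and OTX2 each had a SOX2 site common to naïve and primed cells, which no member showed. Among the members only GATA6 had naïve SOX2 peaks that could be common. The share of all windows with a common SOX2 site was not computed.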

How the data were processed

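Per the labels and the study's methods, the authors trimmed reads, aligned them to hg38 with Bowtie2 2.3.4, removed duplicates (SAMtools 0.1.19 for single-end libraries) and called peaks with MACS2 against input, broad for BRG1, BAF155 and BRM and narrow for SOX2. The deposited lists give peak positions, a score, a fold enrichment (ratio over input), and −log10 p-values and q-values as the authors' caller wrote them; the primed BRM list and the second SOX2 list of each state give positions only. Whether SOX2 libraries were pooled is not given in the sources used here.

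BAF regions were the merged BRG1 and BAF155 peaks of a state, classed with bedtools 2.31.1 at 25% overlap of either region, and other lists were joined to regions by 1 bp. Annotation came from GENCODE release 44, with promoters within 1 kb of any start and annotation read at the midpoint. Class assignment and window counts were tested on simulated intervals. With 1 distinct peak list a group (the 2 SOX2 libraries of a state have the same list) no test was run, and intervals are Clopper-Pearson (95%, scipy 1.17.1). Named sites were every SOX2 peak, peaks at a member's start and the strongest peak of each list per member. The members and gene lists were chosen with earlier results of these data known. Alternatives were other flanks, overlaps, thresholds, list lengths and antibodies.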

Additional observations from a re-analysis of the deposited data

How the results depend on the processing

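Of the 57 values recomputed for the main counts and shares, 44 stayed within the interval or 1.5 times of the value reported. The 44 include values that could not change. These are the counts with a SOX2 replicate left out, as the lists are identical, and the naïve SOX2 count with equal numbers of peaks. A fold of at least 4 took the naïve-only share to 30.8% and the common share to 0 of 13 regions (10.6% in the genome). It took BRM to 3 peaks and the members with more naïve-only regions to 0. A −log10 q of at least 3 took the common share to 19.5% (20.3% in the genome) and BRM to 2 peaks. Requiring 50% of both regions took the common share to 10.3% (13.4% in the genome). BRG1 lists alone gave a naïve-only share of 87.5% (90.1% in the genome), a common share of 9.68% (15.9%) and 5 members with more naïve-only regions. BAF155 lists alone gave a naïve-only share of 34.4% (52.4%) and a common share of 28.2% (25.6%). Equal numbers of top-fold peaks left 1 primed SOX2 peak and 1 member with more naïve-only regions.

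The difference of naïve-only minus primed-only regions changed sign at GATA4 with 100 kb on each side (3) and with BRG1 lists alone (11), at SOX17 with BRG1 lists alone (5), and at HNF4A with a fold of at least 4 (-2), with equal numbers of top-fold peaks (-1) and with BAF155 lists alone (-1). FOXA1 had more primed-only regions in all 11 alternatives, FOXA2 in 10 and GATA6 more naïve-only regions in 10, with equal counts in the remaining 1. Each SOX2 replicate left out gave 3 naïve and 10 primed peaks again, as their lists are identical. The alternative restricted to regions nearest the member's own start was chosen after seeing the data. The causes were not tested, and the lengths of the lists cannot be told apart from the states. No paired analysis was possible because each group has 1 distinct peak list (the 2 SOX2 libraries of a state share theirs).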

Other observations

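Motif words were counted in 300-base windows at the centres of the BAF regions. A GATA word (AGATAA and its variant TGATAA) was present in 13 of the 32 primed-only regions of the 7 loci (40.6%, interval 23.7 to 59.4), against 30.9% of primed-only regions in the genome. It was present in 9 of the 29 naïve-only regions (31.0%, 15.3 to 50.8), against 22.8%, and in 4 of the 32 common regions (12.5%), against 15.0%. A FOX word (TGTTTAC and its variant TGTTTGC) was present in 5 of the 32 primed-only, 2 of the 29 naïve-only and 3 of the 32 common regions, against 14.6%, 8.60% and 7.29%. For the 3 classes, each genome share lay inside the counting interval of its share at the loci for both words.

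Other protein-coding genes were nearest to some regions at GATA4, FOXA1 and HNF4A, and to none at GATA6, SOX17, FOXA2 and PDGFRA. The member was the nearest protein-coding start for 70 of the 93 BAF regions, namely 20 of 29 naïve-only, 26 of 32 primed-only and 24 of 32 common ones. The remaining regions were nearest to NEIL2 and FDFT1 beside GATA4, TTC6 beside FOXA1, and FITM2, R3HDML and TTPAL beside HNF4A.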
